A study of Homo sapiens with 6 samples.

Results

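Transcripts of HCT116 cells given IAA for 3 h, which is meant to degrade ENL, were compared with those of untreated control cells. The comparison used 2 libraries of each, 4 of the 6 libraries of the series. HCT116 is a human colon carcinoma line. In these cells ENL, the product of MLLT1, carries an auxin-inducible degron and the plant F-box protein AtAFB2 is stably expressed, in control and treated cells alike; clones were selected with puromycin and blasticidin. Control cells received no auxin, and treated cells received IAA at 500 um, as the labels write it, for 3 h. The remaining pair, treated in the same way and then cultured for 48 h after a PBS washout, entered only the estimate of the spread between libraries. All 6 libraries came from cells with the degron, so effects of IAA itself cannot be told apart from those of ENL loss. Genes were placed by symbol in 11 classes and 51 groups, and 8317 of the 31628 genes in the table, those with a mean of at least 1 FPKM over the 6 libraries, were tested. The counts cover all of these genes. The genes named are the largest changes of each class and group outside a list of 80 genes and known targets, such as MYC, PLAU, CYP1A1 and DKK1, that an earlier description of these data had singled out.

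ENL binds acetylated histones through its YEATS domain and is part of the super elongation complex, which helps RNA polymerase II pass from pausing into elongation. It is best known from leukaemias in which its gene is fused to MLL. When auxin is present, the plant F-box protein bridges the degron tag to a ubiquitin ligase of the host cell and the tagged protein is destroyed by the proteasome, so transcripts can be measured before slower effects of the loss build up.

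Library totals recovered from the values were 16611104 and 16763616 reads in control and 16442840 and 16770850 reads with IAA, and 8220 to 8406 genes per library of the series reached 1 FPKM. MLLT1 itself had 459 and 480 reads in control and 445 and 402 with IAA, which did not pass the test (voom on recovered reads, log2 change -0.17, SE 0.101, adjusted p = 0.219); the degron acts on the protein, which was not measured. Of 15 listed markers of colon epithelium 11 reached 1 FPKM and CDX1 was at 0 in both groups, while 0 of 17 markers of fibroblasts, endothelium and blood reached 1 FPKM, their summed level being 0.747 to 0.814 in control and 0.907 to 1.02 with IAA. Of 13 intestinal differentiation genes 1 reached 1 FPKM, and ALPI, FABP1, FABP2, GUCA2A and TFF3 were at 0. What a replicate number stands for is not given, so p-values measure only the spread between these libraries, which the fits in part pool over genes.

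Within 3 h, 552 genes rose and 540 fell at an adjusted p under 0.05, together 13.1% of the genes tested (6.64% rose and 6.49% fell), and the median log2 change over all tested genes was 0.01. Most changes were small: 131 of them reached 1.5-fold on the log2(FPKM + 1) scale, 61 upward and 70 downward. The near balance of rises and falls depends on scaling. With each library rescaled to TPM, 397 rose and 647 fell, so that the share of rises among changed genes went from 50.5% to 38%. The counts also rest on all 4 libraries, since 70 genes were called without control 1, 57 without control 2, 50 without IAA 1 and 69 without IAA 2. On whole reads recovered from the FPKM, tested with voom, 3506 of 12820 genes changed, which is 27.3% (13.1% rose and 14.2% fell). There too the balance depends on scaling, since 1683 rises and 1823 falls became 2069 and 1545 without scaling factors. Of the genes changed on FPKM, voom tested 1049, called 1006 in the same direction and gave 0 the opposite direction.

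Calls were counted in each group. Genes of ribosome biogenesis, homeobox genes, receptor tyrosine kinases with their adaptors, keratins and junction proteins, channels and pumps, and enzymes of nucleotide synthesis were called mostly or only downward. Transcription factors of the bZIP family, genes of autophagy and membrane traffic, chaperones, cell cycle genes and the group of RNA polymerase, Mediator and elongation genes were called mostly upward, though the 9 rises among 126 chaperones (7.14%) are near the 6.64% over all genes. Cytosolic ribosomal proteins, the structural proteins of the ribosome, had 0 rises and 0 falls among 77 tested by limma at an adjusted p under 0.05; recovered reads gave 3 rises and 4 falls, and at an unadjusted limma p under 0.05 there were 7 and 2. With TPM the lead of rises shrank to 8 against 6 for polymerase and Mediator genes and to 13 against 7 for autophagy and traffic. On recovered reads 14% of polymerase and Mediator genes rose, near the 13.1% over all genes. For the other groups listed as mostly upward or downward, the more frequent direction was the same with TPM and on recovered reads; without scaling factors the reads of receptor tyrosine kinases and adaptors turned to 19 rises and 18 falls.

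**Figure D1:**
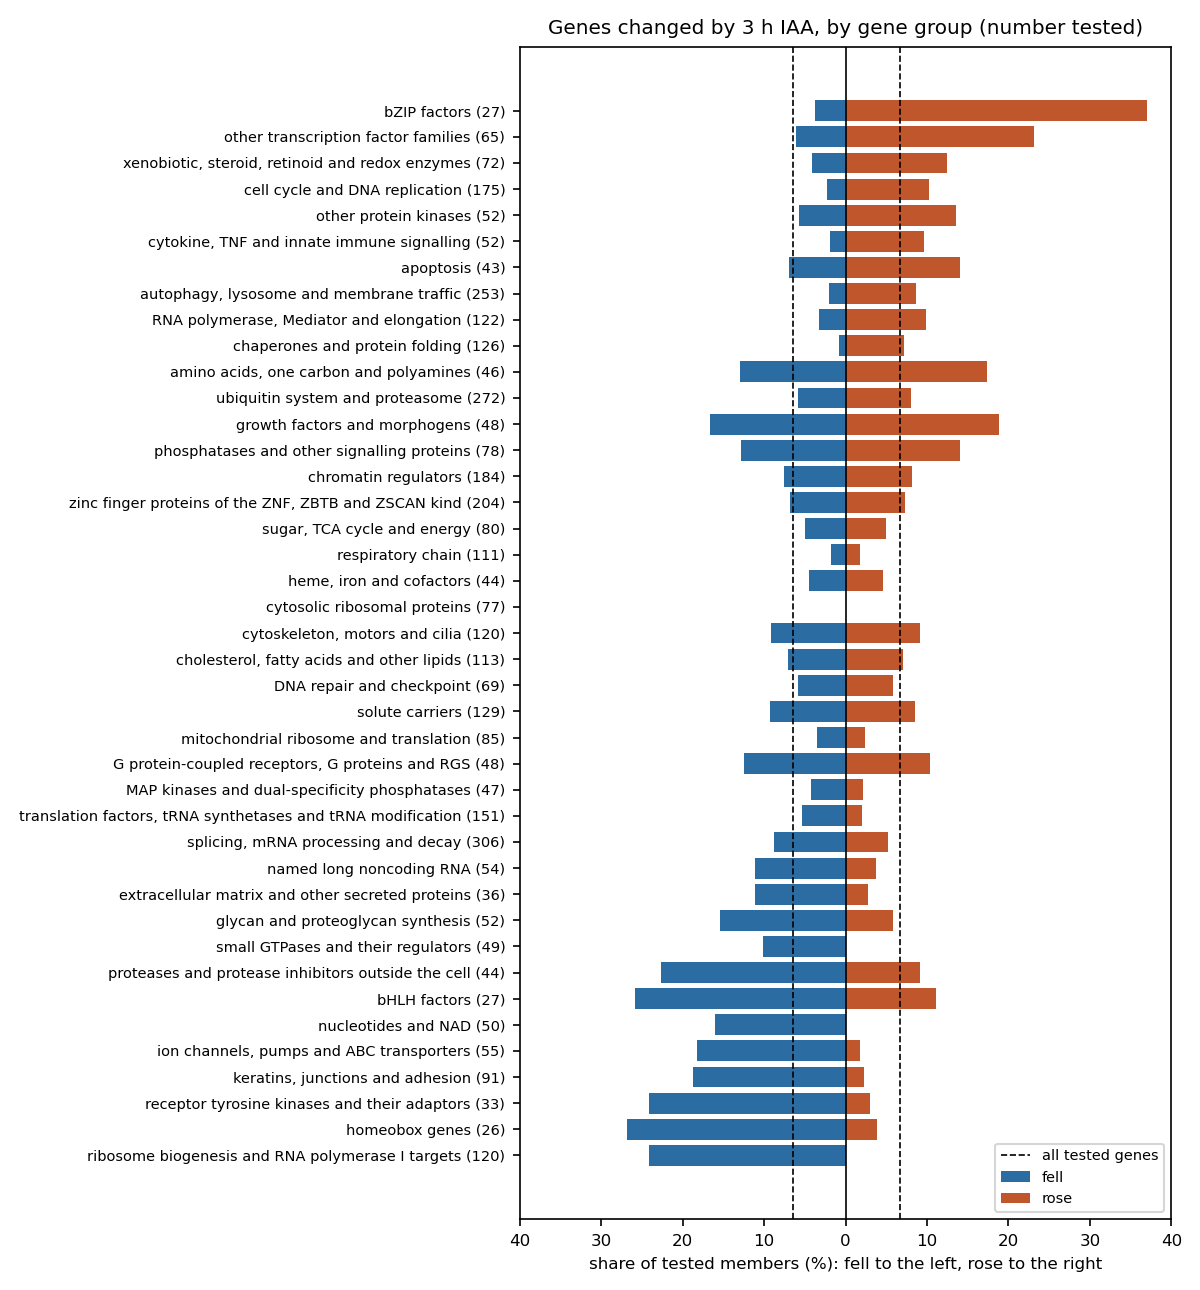
Share of tested members that fell (blue, to the left) and rose (orange, to the right) with IAA in the 41 groups with at least 25 tested genes, in percent, with the number tested in parentheses and dashed lines at 6.49% and 6.64%, the shares over all tested genes. Ribosome biogenesis genes and homeobox genes reach furthest to the left relative to their rises, and bZIP factors furthest to the right.

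On FPKM, transcription factors were the class with the largest share of changed genes after the secreted proteins. Of 398 tested, 51 rose (12.8%), 45 fell (11.3%) and 302 did not pass, with a median log2 change of 0.01. With TPM the order turned, to 45 rises and 54 falls. The families moved differently, and each family count is small.

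Homeobox genes, which encode developmental regulators, fell on FPKM in 7 of 26 tested members and rose in 1. Their median log2 change was -0.16 against 0.01 for all genes. Recovered reads, which include members below the FPKM filter, gave 15 falls (25.4%) and 10 rises (16.9%) among 59. The shares over all genes on reads were 14.2% and 13.1%, and the median of the group there was -0.06. PITX1, known from hindlimb and pituitary development, had 6.39 and 6.49 FPKM in control and 3.6 and 3.76 with IAA (0.571-fold, log2 change -0.67, SE 0.0354, limma adjusted p = 0.00339). MSX1, a repressor known from craniofacial development, had 21.1 and 23 FPKM in control and 14.6 and 14.8 with IAA (limma adjusted p = 0.0118). The control and treated pairs did not overlap for either gene, which the naming rule required. TGIF1, a corepressor of SMAD signalling, went from 2.42 in both control libraries to 1.49 and 1.58 FPKM, and IRX4 from 2.66 and 2.65 to 1.8 and 1.64 FPKM. MSX2, the close relative of MSX1, was the 1 member that rose on FPKM, from 0.918 and 1.29 to 1.92 and 2.01 FPKM (limma adjusted p = 0.0355). LHX4, with a mean below 1 FPKM, rose on recovered reads.

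Basic helix-loop-helix factors had 7 falls and 3 rises among 27 on FPKM, and 12 falls and 11 rises among 43 on recovered reads. HES1, a repressor that Notch signalling induces, had 6.86 and 7.63 FPKM in control against 3.95 and 4.63 with IAA (0.592-fold, limma adjusted p = 0.0242). HES2, from the same family, went the other way, from 1.34 and 1.45 to 3.35 and 3.38 FPKM (2.41-fold, log2 change 0.86, SE 0.0381, limma adjusted p = 0.00223). HES6 rose from 13.3 and 14.7 to 19.1 and 21.6 FPKM. Of these 3 relatives HES1 thus fell while HES2 and HES6 rose. BHLHE40, a repressor tied to the circadian clock, fell from 8.29 and 8.35 to 4.8 and 4.72 FPKM (limma adjusted p = 0.0177), and BHLHA15, a factor of secretory cells, from 1.51 and 1.96 to 0.705 and 0.691 FPKM (limma adjusted p = 0.0227). TFAP4 fell to 0.567-fold, while MXD4, an antagonist of MYC, rose from 2.51 and 2.68 to 4.12 and 4.04 FPKM (1.57-fold, limma adjusted p = 0.00919).

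Among bZIP factors, which bind DNA as paired leucine zippers and include the AP-1 proteins, 10 of 27 rose and 1 fell, with a median log2 change of 0.08. MAFF and MAFG encode small MAF proteins, the partners of NRF2 and BACH1. MAFF had 3.05 and 3.03 FPKM in control and 5.29 and 5.18 with IAA (1.72-fold, log2 change 0.63, SE 0.0441, limma adjusted p = 0.00607), and MAFG went from 10.2 and 11.2 to 16.9 and 17.3 FPKM (limma adjusted p = 0.0165). JUN rose from 15.1 and 17.5 to 24 and 22.9 FPKM and JUND from 55.6 and 53.6 to 76.5 and 80 FPKM. The fall was that of CREBZF, 0.855-fold. With TPM the family had 10 rises and 3 falls, and recovered reads gave 15 and 5.

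The other families were smaller. ETS factors rose in 3 of 11, led by ETS1 (0.96 and 0.948 FPKM against 1.62 and 1.48 with IAA) and ELF4, and fell in 1, ETS2. KLF and SP factors fell in 4 of 11, among them KLF5, a factor of proliferating epithelium (7.06 and 7.34 FPKM against 4.99 and 5.11), and rose in 1, SP6. SOX and TCF/LEF factors fell in 4 of 8, SOX12 and SOX18 among them, and rose in 1, TOX4, which is counted there for its HMG box. Zinc finger proteins of the ZNF, ZBTB and ZSCAN kind, the largest family, had 15 rises and 14 falls among 204, and 12 and 20 with TPM. ZIC5, a zinc finger factor of neural development, had the largest fall on the log2(FPKM + 1) scale among the transcription factors named here. It went from 4.86 and 5.39 to 2.09 and 2.56 FPKM (0.453-fold, log2 change -0.88, SE 0.0941, limma adjusted p = 0.0129). As a ratio BHLHA15 fell further, 0.402-fold, and so did NR5A2 and SMAD6, both with a mean below 1 FPKM (0.289-fold and 0.375-fold). The ratio of BHLHA15 rests on few reads, 39 and 51 in control and 18 and 18 with IAA. ZNF503 rose from 11.2 and 12 to 19.5 and 20.5 FPKM (1.72-fold, limma adjusted p = 0.00601).

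Families gathered under other transcription factors gave 15 rises and 4 falls among 65 on FPKM, and 34 and 26 among 138 on recovered reads. TBX3, a T-box repressor, rose from 1.38 and 1.17 to 3.09 and 3.02 FPKM (2.39-fold, log2 change 0.83, SE 0.0632, limma adjusted p = 0.00726). TFAP2A, an AP-2 factor of epithelial and neural crest development, rose from 1.03 and 0.964 to 1.83 and 1.85 FPKM, and CSRNP2 from 3.35 and 3.08 to 5.61 and 5.4 FPKM. NFAT5, which responds to osmotic stress, fell from 3.42 and 3.22 to 1.94 and 2.01 FPKM, and BCL9L, a coactivator of beta-catenin, from 8 and 8.41 to 5.21 and 5.59 FPKM. Close relatives again parted: IRF2BP2 fell 0.704-fold and IRF2BPL rose 1.38-fold (limma adjusted p = 0.0391 and 0.0137). Of the 12 transcription factors named for the size of their change, PITX1 and HES2 kept an adjusted p under 0.05 whichever control or IAA library was left out. For the other 10 the highest p lay between 0.0514 and 0.119. On recovered reads 11 of the 12 could be tested, and all 11 kept their call without each library. BHLHA15 had too few reads for that test.

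Signalling proteins changed in 75 cases, 35 rises (8.33%) and 40 falls (9.52%) among 420 tested, with 345 that did not pass; with TPM there were 26 rises and 49 falls. Receptor tyrosine kinases and their adaptors fell in 8 of 33 and rose in 1. MET, the receptor of hepatocyte growth factor, had 3.94 and 3.65 FPKM in control and 2.5 and 2.66 with IAA (0.68-fold, limma adjusted p = 0.0137). MST1R, its close relative, went from 4.55 and 4.57 to 3.76 and 3.78 FPKM (limma adjusted p = 0.0474), and ERRFI1, an inhibitor of EGF receptors, from 76.7 and 75.2 to 56.7 and 59.2 FPKM. DOK4 was the member that rose. Recovered reads, which include members below the FPKM filter, gave 14 rises and 19 falls for this group.

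The Notch pathway passes signals between touching cells through membrane-bound ligands. Both JAG1 and JAG2, which encode such ligands, fell: JAG1 had 4.87 and 4.85 FPKM in control against 2.69 and 2.75 with IAA (0.56-fold, log2 change -0.66, SE 0.0433, limma adjusted p = 0.00505). JAG2 had 4.72 and 4.34 FPKM against 2.7 and 2.46 (0.57-fold, limma adjusted p = 0.0131). NF2, the Hippo pathway protein merlin, fell 0.671-fold, and the remaining 15 of 18 tested Notch and Hippo genes did not pass. The WNT receptors FZD7 and FZD4 were higher with IAA. FZD7 rose from 1.44 and 1.66 to 3.21 and 3.25 FPKM (2.09-fold, limma adjusted p = 0.0204) and FZD4 from 1.88 and 1.89 to 3.36 and 3.74 FPKM (1.88-fold, limma adjusted p = 0.0162), the 2 rises among 18 tested WNT and Hedgehog genes, of which 0 fell by limma on FPKM, 2 were lower at an unadjusted p under 0.05, and 1 fell with TPM. Recovered reads gave 7 rises and 7 falls.

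Inside the cell, large falls were seen in PLK2, a kinase of the polo family, and CAV1, the coat protein of caveolae. PLK2 had 31.7 and 31.8 FPKM in control and 17.1 and 16.8 with IAA (0.534-fold, log2 change -0.87, SE 0.0401, limma adjusted p = 0.00258). CAV1 had 6.18 and 6.05 FPKM against 2.85 and 3.12 (limma adjusted p = 0.00351). PHLDB2, which anchors microtubules near adhesions, went from 2.7 and 2.72 to 1.19 and 1.2 FPKM (0.441-fold, limma adjusted p = 0.00204). In all 3 the IAA libraries lay close together and far below control. DDIT4L, an inhibitor of mTOR signalling, fell from 5.65 and 5.17 to 2.53 and 2.94 FPKM, SMURF2, a ubiquitin ligase for TGF-beta receptors, from 6.36 and 6.22 to 3.9 and 3.95 FPKM, and PRKACB, a catalytic subunit of protein kinase A, from 4.66 and 4.46 to 2.93 and 3.12 FPKM. SFN, the 14-3-3 sigma protein, fell from 306 and 321 to 209 and 221 FPKM.

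PPP1R15A, which directs a phosphatase to the translation factor eIF2alpha, rose from 13.3 and 14.7 to 27.9 and 24.9 FPKM (1.89-fold, log2 change 0.87, SE 0.0862, limma adjusted p = 0.0111). GPR110, an adhesion receptor coupled to G proteins, rose from 5.2 and 5 to 9.14 and 9.22 FPKM (1.8-fold, limma adjusted p = 0.00307). Kinases outside the main cascades rose in 7 of 52 and fell in 3, among the rises PIM2 (3.35 and 2.63 FPKM against 5.03 and 4.9), PIM1 and CLK1, a splicing kinase. With TPM this group gave 5 rises and 6 falls. Small GTPases and their regulators fell in 5 of 49 and rose in 0, with CDC42EP1, ARHGAP29, ARHGAP18 and PLEKHG3 among them; 4 were higher at an unadjusted p under 0.05, and recovered reads gave 11 rises and 30 falls. MAP kinases and dual-specificity phosphatases gave 1 rise (MAP2K3) and 2 falls (DUSP3 and MAPKAPK3) among 47, and 1 and 4 with TPM. Among the 12 signalling genes named for size, PLK2, CAV1, PHLDB2 and GPR110 kept their call without each control or IAA library, and for the other 8 the highest adjusted p lay between 0.0604 and 0.153. On recovered reads GNG3 alone of the 12 lost its call when a library was left out.

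On FPKM, secreted proteins had the largest share of changed genes of the 11 classes, 14 rises (10.1%) and 22 falls (15.9%) among 138 tested. On recovered reads 12.5% of 279 rose and 17.9% fell, against 13.1% and 14.2% over all genes. Transcription factors changed more often on reads, with 20.8% rises and 17.4% falls. Falls came from growth factors, proteases and matrix proteins. Growth factors and morphogens, 48 tested, were divided into 9 rises and 8 falls, and at 1.5-fold or more into 3 and 6. KITLG, the ligand of the KIT receptor, had 22.8 and 21.9 FPKM in control and 13.1 and 13.8 with IAA (0.6-fold, log2 change -0.70, SE 0.0447, limma adjusted p = 0.00479). PDGFB, a mitogen of mesenchymal cells, had 2.19 and 2.15 FPKM against 0.947 and 0.995 (0.448-fold, limma adjusted p = 0.00297), and WNT16 had 9.7 and 10.1 FPKM against 5.65 and 6.26 (limma adjusted p = 0.00941). GAL, the neuropeptide galanin, also fell (3.78 and 3.76 against 2.76 and 2.19 FPKM).

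TGFA and EREG, ligands of the EGF receptor, were among the rises. TGFA had 1.74 and 1.6 FPKM in control and 2.39 and 2.41 with IAA (1.44-fold, limma adjusted p = 0.0139), and EREG had 46.2 and 46.6 FPKM against 56.9 and 57.6 (1.23-fold, limma adjusted p = 0.0267). ADM2, a peptide hormone of the calcitonin family, rose from 0.961 and 1.14 to 1.86 and 1.88 FPKM (1.78-fold, limma adjusted p = 0.0137), and METRNL from 3.9 and 4 to 5.11 and 5.39 FPKM. Cytokines and chemokines gave 0 rises and 0 falls among 10 tested by limma, while 3 were higher at an unadjusted p under 0.05 and 3 rose on recovered reads.

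Proteases and protease inhibitors outside the cell fell in 10 of 44 and rose in 4. The falls included 3 kallikreins, a family of serine proteases encoded side by side: KLK6 went from 3.99 and 4.52 to 2.69 and 2.76 FPKM (limma adjusted p = 0.0137), KLK7 from 5.61 and 5.51 to 3.99 and 4.2 FPKM, and KLK10 from 1.58 and 1.54 to 0.949 and 0.778 FPKM. CPA4, a carboxypeptidase, fell from 2.99 and 3.26 to 1.82 and 1.71 FPKM (0.565-fold, limma adjusted p = 0.0137). PRSS8, the membrane protease prostasin, and CTSV, a cathepsin, rose 1.24-fold and 1.25-fold. Among 36 matrix and other secreted proteins 4 fell and 1 rose. THBS1, an adhesive glycoprotein that restrains angiogenesis, fell from 18 and 17.9 to 10.9 and 10.1 FPKM (0.584-fold, log2 change -0.72, SE 0.0567, limma adjusted p = 0.00768), and QSOX1, an oxidase of disulfide bonds, was the rise. Among the 12 secreted genes named for size, PDGFB kept its call without each control or IAA library and the highest adjusted p of the other 11 lay between 0.0509 and 0.155. On recovered reads 10 of 12 kept theirs, and PRSS8 and CTSV did not.

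**Figure D2:**
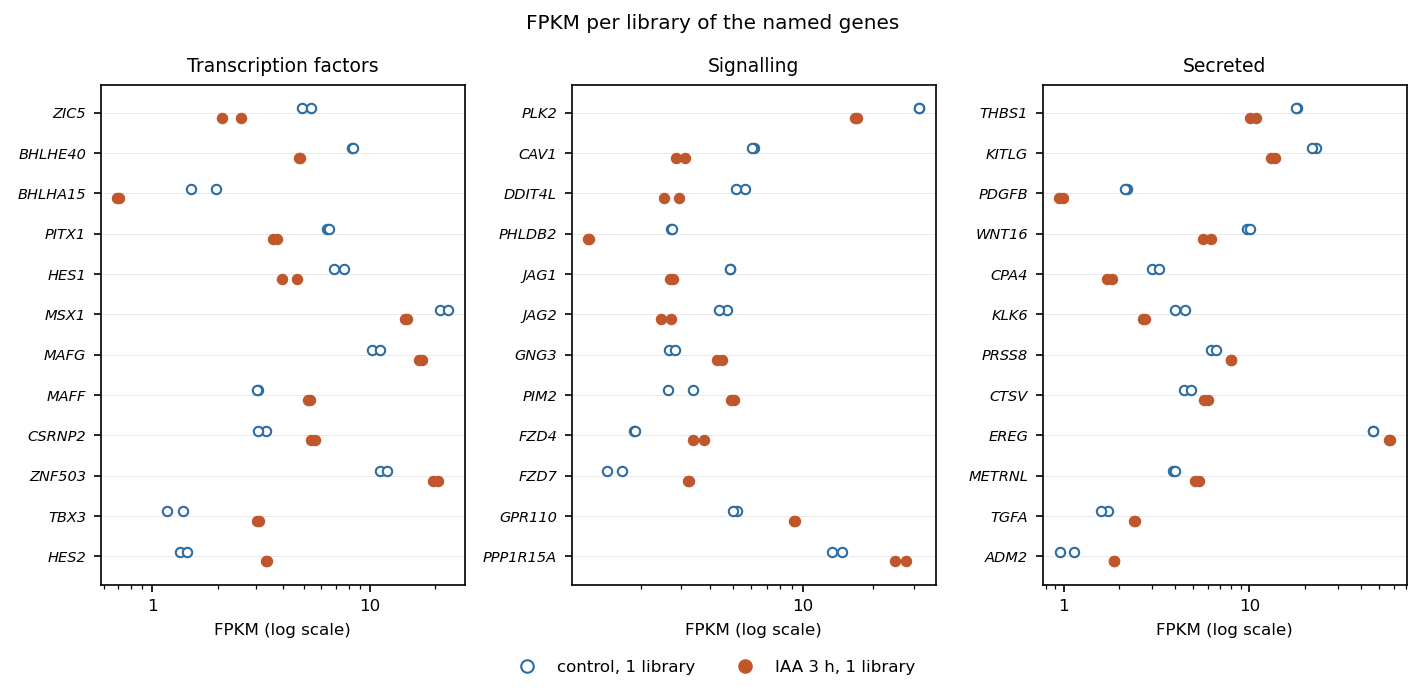
FPKM on a log axis in each control library (open blue circles) and each IAA library (filled orange circles) for the 6 falls and 6 rises named for size among transcription factors, signalling and secreted genes, ordered by log2 change. The control and IAA pairs are apart for every gene because the naming rule required it, and are widest apart for PHLDB2, BHLHA15, HES2 and TBX3. BHLHA15 had only 39 and 51 reads in control and 18 and 18 with IAA.

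Metabolic enzymes had 36 rises (6.34%) and 41 falls (7.22%) among 568 tested, and 25 and 48 with TPM. Several of the larger changes were in enzymes that build sugar chains. Glycan and proteoglycan synthesis gave 8 falls (15.4%) and 3 rises (5.77%) among 52, against 6.49% and 6.64% over all genes. On recovered reads the group had 20 falls (18.3%) and 14 rises (12.8%) among 109, against 14.2% and 13.1% over all genes. HS3ST1, which adds the rare 3-O-sulfate to heparan sulfate, had 3.42 and 3.36 FPKM in control and 1.26 and 1.21 with IAA (0.364-fold, log2 change -0.97, SE 0.0324, limma adjusted p = 0.00167). CHST14, a sulfotransferase of dermatan sulfate, went from 6.17 and 6.55 to 3.22 and 3.78 FPKM, B3GALT6, which builds the linker of proteoglycan chains, from 6.47 and 6.51 to 4.46 and 4.06 FPKM, and CHST3, a chondroitin sulfotransferase, from 1.52 and 1.63 to 0.915 and 0.96 FPKM. HAS3, which makes hyaluronan, a chain without sulfate, rose from 29.3 and 30 to 56.6 and 54.9 FPKM (1.88-fold, log2 change 0.89, SE 0.0509, limma adjusted p = 0.00351).

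Enzymes of nucleotide and NAD synthesis fell in 8 of 50 and rose in 0, with a median log2 change of -0.07. PPAT and PFAS, of the purine pathway, fell from 3.25 and 3.04 to 2.3 and 2.38 FPKM and from 2.12 and 2.1 to 1.66 and 1.47 FPKM. UMPS, which completes UMP, fell from 8.16 and 8.32 to 6.74 and 6.41 FPKM, and DCTPP1, a nucleotide pyrophosphatase, from 15.5 and 15.8 to 12.1 and 11 FPKM. These 4 had folds between 0.738 and 0.798, and 4 other members were higher at an unadjusted p under 0.05. Recovered reads gave 21 falls and 7 rises for the group. Xenobiotic, steroid, retinoid and redox enzymes had 9 rises (12.5%) and 3 falls (4.17%) among 72, against 6.64% and 6.49% over all genes. On recovered reads 17 of 118 rose (14.4%), near the 13.1% over all genes, and 10 fell (8.47%, against 14.2%). ALDH1A3, which makes retinoic acid, rose from 38 and 37.1 to 45.8 and 47.6 FPKM, while ALDH1B1 fell from 25.1 and 23.8 to 17.2 and 18.6 FPKM.

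Amino acid and one carbon enzymes rose in 8 and fell in 6 of 46. ASNS, PSAT1 and GOT1, enzymes of asparagine, serine and aspartate synthesis, rose between 1.22-fold and 1.28-fold. MAT2A and MAT2B encode the catalytic and the regulatory subunit of the enzyme that makes S-adenosylmethionine. MAT2A fell from 160 and 156 to 128 and 128 FPKM (limma adjusted p = 0.0163), and MAT2B rose from 4.06 and 3.83 to 4.96 and 4.99 FPKM (limma adjusted p = 0.0204), so the subunits changed in opposite directions. MTAP, which salvages methionine, fell 0.697-fold. With TPM the group gave 4 rises and 9 falls.

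Lipid enzymes had 8 rises and 8 falls among 113, and 6 and 10 with TPM. PLD6, a phospholipase of the mitochondrial surface, fell from 6.05 and 5.82 to 2.8 and 2.95 FPKM (0.484-fold, limma adjusted p = 0.00297). UGCG, which makes glucosylceramide, rose from 4.04 and 4.08 to 5.97 and 6.51 FPKM (1.54-fold, limma adjusted p = 0.011), and IDI1, of the mevalonate pathway, from 5.76 and 5.73 to 7.79 and 8.72 FPKM. In the pathways of energy supply 4 of 80 sugar and TCA cycle genes rose and 4 fell (2 and 5 with TPM), and 2 of 111 respiratory chain genes rose and 2 fell. Among the 12 metabolic genes named for size, HS3ST1, PLD6 and HAS3 kept their call without each control or IAA library, and the other 9 had a highest adjusted p between 0.0753 and 0.165. On recovered reads 11 of 12 kept theirs, with COQ10A the exception.

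Named long noncoding RNAs, 54 tested, fell in 6 and rose in 2, with a median log2 change of -0.02. CCAT1, an RNA first described in colon cancer and transcribed upstream of MYC, had 1.58 and 1.62 FPKM in control and 0.672 and 0.68 with IAA (0.423-fold, log2 change -0.63, SE 0.0442, limma adjusted p = 0.00601). LINC00896 went from 1.73 and 2.16 to 0.686 and 0.841 FPKM (0.393-fold, limma adjusted p = 0.014) and LINC00973 from 2.54 and 3.36 to 1.61 and 1.52 FPKM. MIR17HG, the host transcript of the miR-17-92 cluster, fell from 2.89 and 2.83 to 2.02 and 1.63 FPKM (0.639-fold, limma adjusted p = 0.0418), LINC00963 fell 0.708-fold and SNHG16, a snoRNA host, 0.871-fold. LINC00641 rose from 4.47 and 4.19 to 7.85 and 6.77 FPKM (1.69-fold, limma adjusted p = 0.0137), and LINC00852, whose exons overlap GHRL, from 1.27 and 1.03 to 1.83 and 1.93 FPKM. None of the 8 kept an adjusted p under 0.05 without each control or IAA library (highest p between 0.0659 and 0.158). On recovered reads 7 were tested and 6 kept theirs, LINC00973 being the exception. Of 24 tested long noncoding RNAs with clone names 1 rose and 0 fell by limma.

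**Figure D3:**
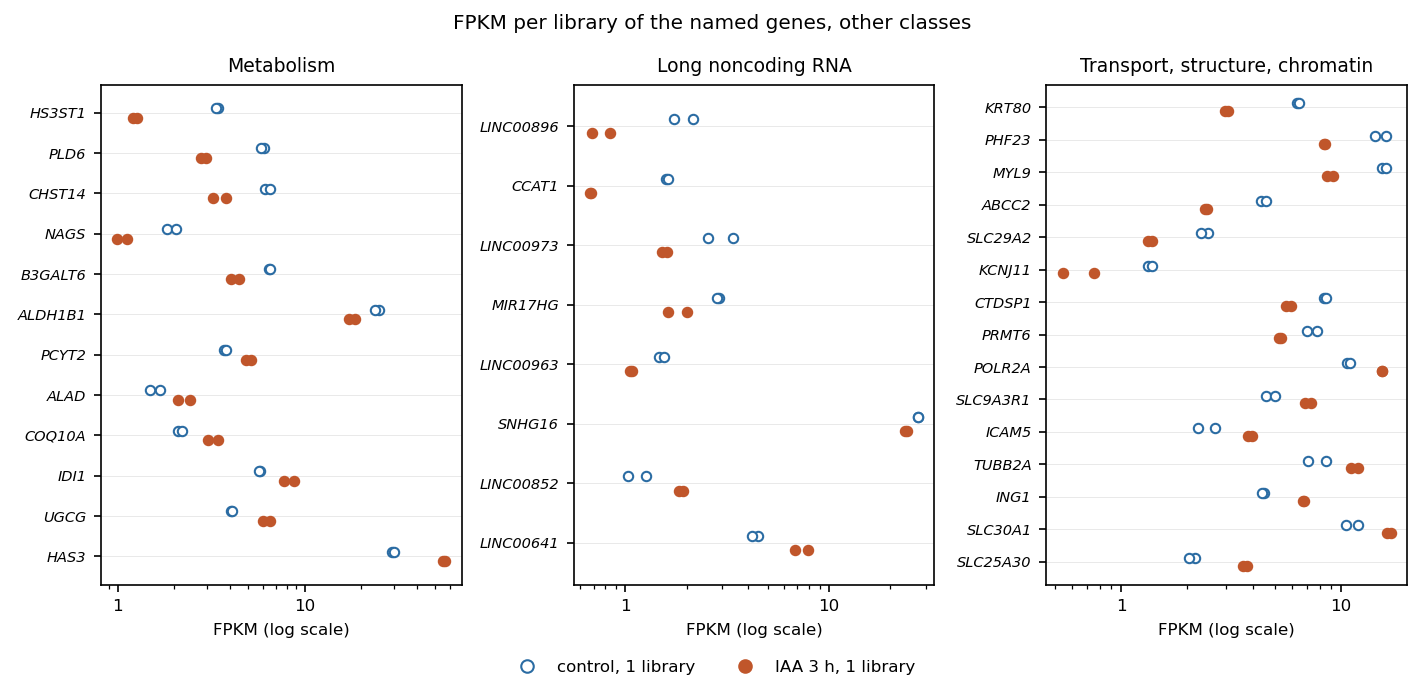
FPKM on a log axis in each control (open blue) and IAA (filled orange) library for the named metabolic genes, long noncoding RNAs, and transporter, structural and chromatin genes, without 3 of those the naming rule picked. HS3ST1 and CCAT1 fall and HAS3 rises with the replicates of each group close together.

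Ribosome biogenesis, the making of ribosomes from rRNA and proteins in the nucleolus, was the group with the largest number of falls on FPKM: 29 of 120 tested genes fell and 0 rose, with a median log2 change of -0.12. The falls were shallow. RRS1 went from 54.6 and 57.5 to 43.7 and 40.3 FPKM, NIP7 from 43.4 and 43.7 to 32.9 and 33.3 FPKM, RRP7A from 12.4 and 12.6 to 9.31 and 9.15 FPKM, and URB2 from 3.13 and 3.22 to 1.93 and 2.23 FPKM. Recovered reads gave 75 falls (56%) and 1 rise among 134, against falls in 14.2% of all genes tested on reads. The 83 falls among 383 splicing, processing and decay genes were more in number but a smaller share (21.7%). At an unadjusted limma p under 0.05, 1 member of the ribosome biogenesis group was higher. Without 1 control or IAA library the count of falls was 0 in each case, and with the 4 libraries alone it was 10. POLR1B, a core subunit of RNA polymerase I, fell from 5.48 and 5.29 to 3.89 and 3.74 FPKM (limma adjusted p = 0.00968).

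The group of polymerase, Mediator and elongation genes also holds subunits of polymerases I and III, general factors and phosphatases. Of 122 tested, 12 rose (9.84%, against 6.64% over all genes) and 4 fell, with a median of 0.05. On recovered reads 25 of 178 rose (14%), near the 13.1% over all genes, and 18 fell (10.1%, against 14.2%). POLR2A, the largest subunit of RNA polymerase II, rose from 10.7 and 11 to 15.4 and 15.3 FPKM (1.41-fold, log2 change 0.46, SE 0.0372, limma adjusted p = 0.00768). GTF2B, the general factor TFIIB, rose from 1.53 and 1.55 to 2.39 and 2.3 FPKM, and MED29 from 5.06 and 5.05 to 6.66 and 6.93 FPKM, while MED22, also of Mediator, fell 0.781-fold (limma adjusted p = 0.0285). Phosphatases of the polymerase tail were divided, with CTDSP1 at 0.679-fold and CTDSP2 at 1.4-fold (limma adjusted p = 0.00968 and 0.0279). CDK9, the kinase of P-TEFb, had 16.2 in both control libraries and 15.9 and 15.4 FPKM with IAA, which did not pass (limma adjusted p = 0.451).

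Chromatin regulators had 15 rises and 14 falls among 184. CBX2, a subunit of Polycomb complexes, fell from 6.56 and 6.49 to 4.73 and 4.75 FPKM (limma adjusted p = 0.00968). PHF23, a PHD finger protein, fell from 14.2 and 16 to 8.47 and 8.33 FPKM (limma adjusted p = 0.00827). ING1, a reader of methylated histone H3, rose from 4.45 and 4.37 to 6.72 and 6.81 FPKM, and H1FX, a linker histone, from 38.9 and 38.4 to 50.5 and 52.8 FPKM. The arginine methyltransferase PRMT6 fell 0.714-fold.

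Of 306 genes for splicing, mRNA processing and decay 16 rose and 27 fell, or 11 and 30 with TPM. NXF1, the main export receptor of mRNA, had 3.93 and 4.3 FPKM in control and 8.07 and 8.06 with IAA (1.96-fold, log2 change 0.83, SE 0.0462, limma adjusted p = 0.00351). PCF11, a cleavage factor at transcript ends, rose from 4.1 and 4.19 to 6.46 and 5.68 FPKM, and TOB1 and TOB2, adaptors of deadenylation, rose 1.31-fold and 1.43-fold. HNRNPDL, an RNA-binding protein, fell from 58.8 and 57.8 to 39.9 and 40.4 FPKM (0.689-fold, limma adjusted p = 0.0083); HNRNPDLP2 and HNRNPDP1, which also fell, are near-identical pseudogene copies of this gene and its relative, so the reads may be shared. Among 151 translation and tRNA genes 8 fell and 3 rose (13 and 2 with TPM), the rises being those of EIF1, EIF4EBP2 and CARS. EIF1 went from 85.3 and 86.4 to 108 and 110 FPKM (limma adjusted p = 0.011). NXF1 was the 1 of the 6 genes named for size in this class that kept its call without each library, against 6 of 6 on recovered reads.

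Genes of protein handling rose more often than they fell, 53 (8.14%) against 22 (3.38%) among 651, and 36 against 26 with TPM. Autophagy, lysosome and membrane traffic contributed 22 rises and 5 falls of 253. MAP1LC3B, the LC3 protein that coats autophagosomes, rose from 4.29 and 4.47 to 6.29 and 6.49 FPKM (1.46-fold, limma adjusted p = 0.0109); its near copy MAP1LC3B2 rose 1.43-fold and may share its reads. EXOC8, of the exocyst, rose from 8.48 and 9.03 to 12.2 and 12.1 FPKM. Chaperones rose in 9 of 126 and fell in 1, BAG2. DNAJB9, HSPA13 and HYOU1, chaperones of the endoplasmic reticulum, rose between 1.21-fold and 1.39-fold. Ubiquitin ligases were found on both sides, with RNF223, RNF19B and RNF146 among 22 rises and TRIM47, TRIM8 and KLHL9 among 16 falls of 272; with TPM there were 15 rises and 18 falls.

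Cell cycle and DNA replication genes rose in 18 and fell in 4 of 175, and apoptosis genes rose in 6 and fell in 3 of 43. The anti-apoptotic relatives BCL2L1 and MCL1 went apart: BCL2L1 fell from 9.04 and 9.1 to 6.61 and 6.57 FPKM (0.726-fold, log2 change -0.41, SE 0.0385, limma adjusted p = 0.0105), and MCL1 rose from 125 and 117 to 155 and 153 FPKM (1.27-fold, limma adjusted p = 0.0227). BIRC2, an inhibitor of apoptosis, rose 1.3-fold. SERTAD3 rose from 2.82 and 2.72 to 5.13 and 4.32 FPKM and CDKN2D, an inhibitor of CDK4 and CDK6, from 3.92 and 4.06 to 5.83 and 5.44 FPKM, while TOP1, which relaxes DNA ahead of polymerases, fell from 5.19 and 5.55 to 4.07 and 4.08 FPKM. With TPM apoptosis genes gave 4 rises and 4 falls.

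Keratins, junction and adhesion genes fell in 17 of 91 and rose in 2, with a median of -0.04. KRT80 had 6.31 and 6.45 FPKM in control and 2.98 and 3.07 with IAA (0.474-fold, log2 change -0.87, SE 0.0388, limma adjusted p = 0.00223). KRT18, a keratin of simple epithelia, went from 167 and 174 to 135 and 127 FPKM (limma adjusted p = 0.0221), KRT15 from 6.3 and 5.93 to 3.9 and 4.19 FPKM and KRT23 from 3.25 and 3.77 to 2.16 and 1.9 FPKM. Of the colon epithelium markers KRT8, KRT18, KRT19 and CLDN3 fell and 0 rose, while EPCAM (limma adjusted p = 0.182), CDH1 and CLDN7 did not pass. ELF3 (2.51 and 2.48 FPKM against 2.81 and 2.79 with IAA), CDX2 (1.5 and 1.91 against 2.24 and 2.34) and VIL1 (0.979 and 0.86 against 1.05 and 1.23) were higher and did not pass. The summed level of the 15 was 390 to 403 FPKM in control and 322 to 328 with IAA. Most of that sum came from KRT18 and KRT19 (131 and 132 FPKM against 104 and 107 for KRT19). In such bulk libraries fewer cells of a type and less RNA per cell cannot be told apart. Cytoskeleton, motor and cilium genes had 11 rises and 11 falls among 120, and 5 and 12 with TPM. MYL9, a myosin light chain, fell from 15.3 and 16 to 8.67 and 9.18 FPKM (0.572-fold, limma adjusted p = 0.00498) and TAGLN from 4.57 and 5.08 to 2.84 and 2.88 FPKM. FLNC, a filamin, fell 0.674-fold. The tubulins TUBB2A and TUBA1A rose 1.48-fold and 1.34-fold.

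Channels, pumps and ABC transporters fell in 10 of 55 and rose in 1, KCNG1. ABCC2, an efflux pump for conjugated drugs and bilirubin, had 4.35 and 4.54 FPKM in control and 2.46 and 2.41 with IAA (0.547-fold, log2 change -0.66, SE 0.0375, limma adjusted p = 0.00351). KCNJ11 and KCNN4, potassium channels, fell 0.476-fold and 0.678-fold. Solute carriers had 11 rises and 12 falls of 129. SLC29A2, which carries nucleosides, fell from 2.48 and 2.31 to 1.32 and 1.38 FPKM, and SLC38A2, which carries neutral amino acids, from 49.8 and 48.2 to 33.5 and 34.3 FPKM. SLC30A1, the zinc exporter, rose from 11.9 and 10.5 to 16.2 and 16.8 FPKM, and SLC25A30, a mitochondrial carrier, from 2.17 and 2.04 to 3.72 and 3.58 FPKM (1.73-fold).

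Outside the 11 classes 4337 genes were tested, with 259 rises and 218 falls. Among the largest falls were TIGD5, derived from a transposase (8.31 and 8.58 FPKM against 4.29 and 3.81), JMJD4, a hydroxylase of the translation termination factor eRF1 (3.26 and 3.27 against 1.22 and 1.52), and ENC1, an actin-binding protein of the kelch family (17.3 and 17.4 against 10.2 and 9.58). UBL4A, which helps insert tail-anchored proteins into membranes, fell from 19.9 and 18.5 to 11.3 and 11.8 FPKM (0.602-fold, limma adjusted p = 0.00727). Among the largest rises were KHNYN, a cofactor of the antiviral protein ZAP (8.67 and 9.13 FPKM against 16.4 and 16.2, limma adjusted p = 0.00314), SLFN5, of the Schlafen family (1.49 and 1.32 against 3.12 and 2.94), MKNK2, a kinase of the cap-binding factor eIF4E (4.21 and 4.97 against 8.48 and 8.01), and MYLIP, the ubiquitin ligase of the LDL receptor (1.32 and 1.4 against 2.78 and 2.59). C10orf55, which fell 0.416-fold, shares exons with PLAU. TIGD5, JMJD4 and KHNYN overlap EEF1D, SNAP47 and SDR39U1, and ENC1 overlaps another annotated gene. No source states whether counting used the strand, so reads of overlapping genes cannot be told apart. Of the 16 genes named by this rule C10orf55, ENC1 and KHNYN kept their call without each library, and the highest adjusted p of the rest lay between 0.0509 and 0.119. Of the 189 further group members that the naming rule picked, 0 kept their limma call on FPKM without each library. Exons of 34 of the 92 genes named for size in a class also overlap another annotated gene, among them PITX1, JAG1, JAG2, KITLG, THBS1, PHLDB2, HAS3 and PLD6, so the values of those genes are uncertain in the same way. The same holds for 88 of the 189 further group members (KRT18 with KRT8 and TAGLN with PCSK7, for example), 9 of the 16 named outside the classes and 20 of the 48 named below the filter.

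The FPKM were taken to divide by the whole gene span, introns included, from the whole-read steps of genes with few reads, 84.9% of which fit it. On that reading long genes with many reads can lie below 1 FPKM. Of the 12820 genes with a mean of at least 50 recovered reads 5194 lay below that filter, 5010 of them protein coding, with a median span of 73.8 kb against 12.4 kb for the genes above it. Voom called 716 rises and 487 falls among them, 13.8% and 9.38%. Below the filter 36 rises and 32 falls reached 2-fold, against 19 and 28 above it. Leaving out 1 of the 4 libraries left 855 calls without control 1, 767 without control 2, 864 without IAA 1 and 889 without IAA 2. Transcription factors made up 434 of these genes, with 86 rises and 50 falls, signalling genes 567 with 96 and 73, secreted genes 143 with 12 and 16, metabolic genes 322 with 32 and 15, and named long noncoding RNAs 32 with 4 and 5.

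Several of the largest falls below the filter were in signalling molecules and their enzymes. PDE4B and PDE10A break down cyclic nucleotides. PDE4B had 1987 and 2193 reads in control and 622 and 763 with IAA (log2 change -1.62, SE 0.0744, voom adjusted p = 6.32e-26), and PDE10A had 134 and 85 reads against 30 and 20 (log2 change -2.12, voom adjusted p = 3.09e-09). BDNF, a neurotrophin, had 1423 and 1510 reads against 470 and 534 (log2 change -1.57, voom adjusted p = 1.97e-23); its exons overlap BDNF-AS. FGF1 had 120 and 102 reads against 30 and 34, and EDN1, the vasoconstrictor endothelin, 72 and 72 against 25 and 20. LTBP2, which is part of elastic fibres, went from 375 and 396 to 155 and 134 reads. The naming rule required the pairs to be apart, and the reads of FGF1 and EDN1 are few.

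NR5A2, a nuclear receptor of gut and liver also called LRH-1, had 1134 and 1133 reads in control and 342 and 309 with IAA (log2 change -1.82, SE 0.098, voom adjusted p = 8.87e-23). SMAD6, an inhibitor of BMP signalling, had 160 and 177 reads against 55 and 71 (log2 change -1.44, voom adjusted p = 1.85e-07). CYP24A1, which inactivates vitamin D, had 162 and 134 reads against 40 and 31 (log2 change -2.07, voom adjusted p = 2.31e-10). Falls also included NAV3 (364 and 382 reads against 131 and 131) and C2orf54 (115 and 124 against 17 and 40), the latter with the largest log2 change downward of those named, -2.19.

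On the other side, SASH1, a scaffold protein, had 249 and 188 reads in control and 970 and 1006 with IAA (log2 change 2.17, SE 0.116, voom adjusted p = 6.17e-23). AHRR, the repressor of the aryl hydrocarbon receptor and itself one of its targets, had 534 and 439 reads against 1690 and 1709 (log2 change 1.79, voom adjusted p = 2.04e-24), though its exons overlap PDCD6. LHX4, a LIM homeobox factor, had 128 and 115 reads against 541 and 476 (log2 change 2.04, voom adjusted p = 1.41e-16), with exons that overlap ACBD6. FAM46C, which lengthens poly(A) tails, had 74 and 69 reads against 372 and 320 (log2 change 2.24, voom adjusted p = 8.77e-15). These 4 genes rose about as far as the largest falls went down.

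Other rises below the filter were those of FOSB (47 and 45 reads against 233 and 153) and ATF3 (216 and 199 against 557 and 508), both bZIP factors, FAT4, a giant cadherin (85 and 90 against 253 and 288), and PAG1, an adaptor of SRC family kinases (125 and 121 against 337 and 366). VIPR1, a receptor of vasoactive intestinal peptide, KLHL24 and SESN3, a sestrin of the mTOR pathway, rose by a log2 change of 1.22, 1.20 and 1.12. WNT9A, a ligand, had 208 and 254 reads against 411 and 414. DHRS3, which reduces retinal, had 133 and 133 reads against 290 and 283. Among the long noncoding RNAs LINC00511 had 480 and 539 reads against 721 and 718 (voom adjusted p = 2.01e-05), and LINC00152, whose exons overlap LINC01943, 336 and 347 against 237 and 252 (voom adjusted p = 0.00116). Of the 48 genes named below the filter 36 kept their call without each library. The 12 that did not, CASC8, B3GALT5, LINC00326, MGLL, DLEU2, KCNQ1OT1, NAT1, IL7, LINC00662, LINC01024, PGF and ADAMTSL4, had a highest adjusted p between 0.0585 and 0.394.

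**Figure D4:**
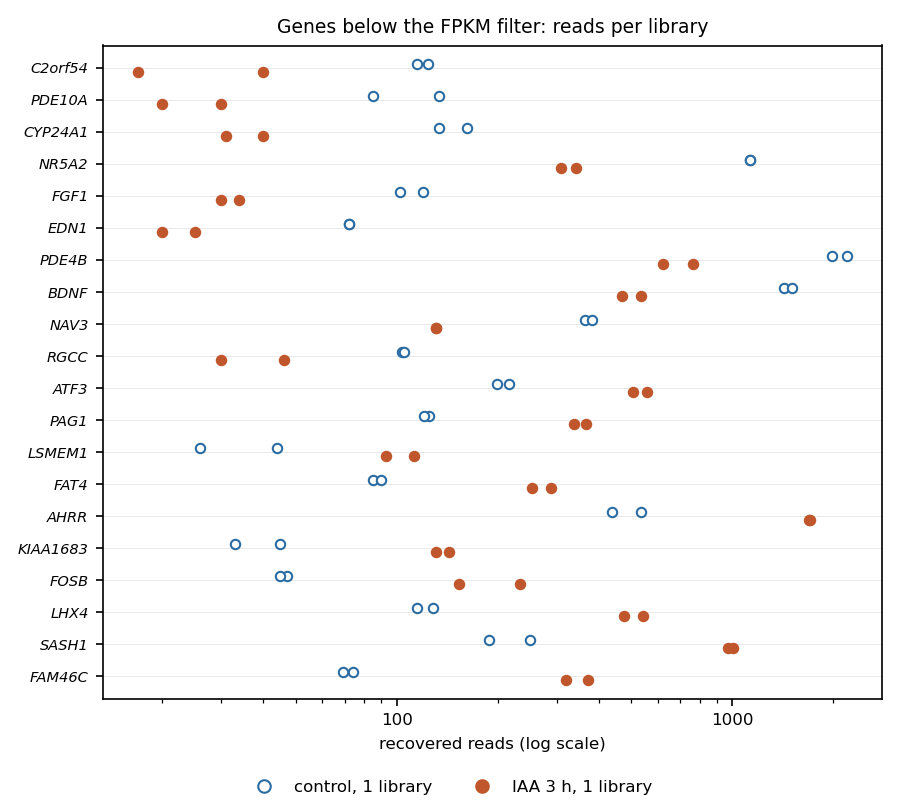
Recovered reads on a log axis in each control (open blue) and IAA (filled orange) library for the 10 falls and 10 rises named for size among genes with a mean below 1 FPKM and at least 50 reads. Control and IAA pairs are apart for all 20, as the naming rule required, and C2orf54, PDE10A and EDN1 have the fewest reads with IAA.

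Gene structure was compared next. Among protein-coding genes tested on recovered reads, the 204 with a single exon rose in 12.7% and fell in 21.1% of cases, with a median log2 change of -0.05, while the 9836 with 5 or more exons rose in 13.9% and fell in 14.8%. Among protein-coding genes tested on FPKM the median span was 16522 bases for rises, 17932 for falls and 18596 for the rest, and the median level was 3.02, 4.6 and 3.01 FPKM.

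The promoters of changed genes were searched for 6 short motifs in the RefSeq sequences of GRCh38.p14, which cover 250 bases before to 50 after the start and matched 5067 of 6311 tested protein-coding genes (80.3%). TATAAA, the letters of the TATA box that positions the polymerase at some promoters, was sought on the gene's strand in the 45 bases before the start. It was found in 26 of 383 rises (6.79%), 8 of 360 falls (2.22%) and 57 of 4324 genes that did not pass (1.32%). It was found in 1.8% of all tested promoters and in 2.79% of all RefSeq promoters in the table. At 1.5-fold or more it was in 8 of 31 rises (25.8%) and 3 of 35 falls (8.57%). The 8 rises were CYP1A1, FOS, BTG1, HERPUD1, PPP1R15A, NXF1, GDF15 and MKNK2, and the 3 falls were DDIT4L, DKK1 and KITLG. The 100 bases before the start are shown for 3 of these rises and 2 of the falls, genes with changes given above, with the TATAAA letters in capitals:
NXF1 (chr11:62805441-62805540, minus strand): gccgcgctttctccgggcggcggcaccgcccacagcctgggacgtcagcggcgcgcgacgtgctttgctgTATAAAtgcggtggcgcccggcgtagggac
MKNK2 (chr19:2051245-2051344, minus strand): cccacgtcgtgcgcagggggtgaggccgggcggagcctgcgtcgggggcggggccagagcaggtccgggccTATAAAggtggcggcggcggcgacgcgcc
PPP1R15A (chr19:48872321-48872420, plus strand): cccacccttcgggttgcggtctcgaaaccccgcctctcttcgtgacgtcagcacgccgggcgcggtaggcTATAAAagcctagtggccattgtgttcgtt
KITLG (chr12:88580472-88580571, minus strand): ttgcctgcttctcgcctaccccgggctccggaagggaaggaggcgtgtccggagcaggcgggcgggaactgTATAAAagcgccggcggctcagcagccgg
DDIT4L (chr4:100190469-100190568, minus strand): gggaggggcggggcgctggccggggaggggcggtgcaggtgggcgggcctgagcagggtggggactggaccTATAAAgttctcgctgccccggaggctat
The first T of the motif lay 29 or 30 bases before the start in all 5. A match of letters is a description and not evidence of a working site, and genes with this motif were found in both directions.

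The other motifs were sought on both strands of the whole 300 bases. CCAAT, the letters of the CCAAT box, was in 47.8% of rises, 30.8% of falls and 37.6% of genes that did not pass, against 35.7% of all RefSeq promoters. CACGTG, the E box that MYC and its relatives can bind, was in 6.79% of rises, 15.3% of falls and 11.1% of the rest, against 7.43% of all RefSeq promoters. At 1.5-fold or more the order turned, with the E box in 4 of 31 rises (12.9%) and 2 of 35 falls (5.71%). TGACG, the core of sites for CREB and ATF factors, was in 41.8%, 30.8% and 38.7%, against 25% of all RefSeq promoters. GCGTG, the core recognised by the aryl hydrocarbon receptor, was in 52%, 54.2% and 53.4%, and TGANTCA, the AP-1 site, in 4.44%, 4.44% and 4.42%, against 36.3% and 7.76% of all RefSeq promoters. These shares describe promoters and were not tested, and TGACG can overlap other motifs searched.

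**Figure D5:**
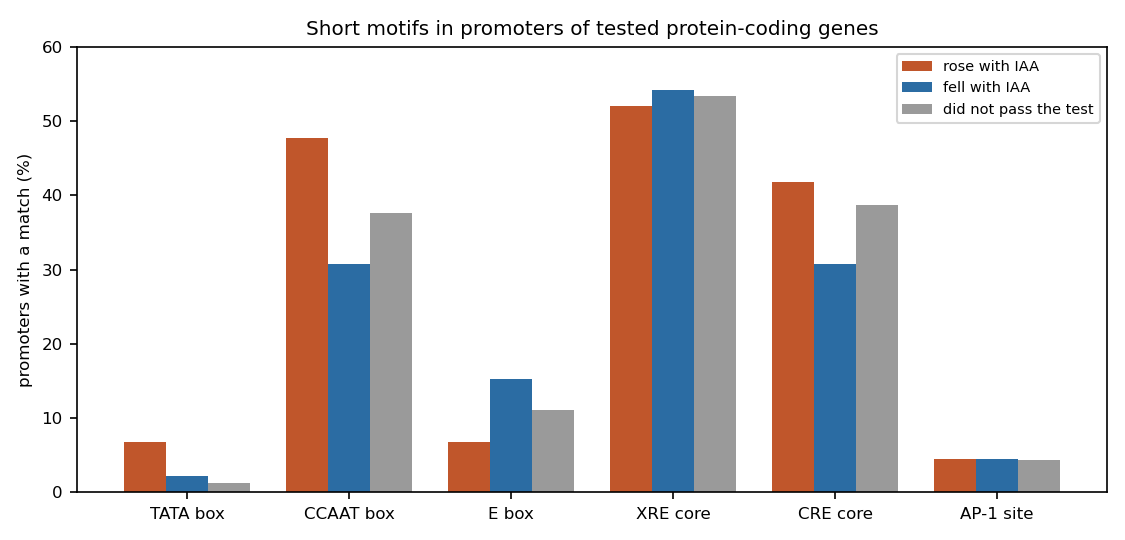
Share of RefSeq promoters, in percent, that hold each of 6 short motifs among genes that rose (orange), fell (blue) or did not pass the test (grey); the TATA box was counted only in the 45 bases before the start, and CRE core and XRE core stand for TGACG and GCGTG. Rises have the larger share of TATA and CCAAT boxes and falls the larger share of E boxes (at 1.5-fold or more, not plotted, 12.9% of rises and 5.71% of falls hold an E box), while XRE core and AP-1 shares are close.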

How the data were processed

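RNA-seq of 6 libraries, 2 per group, was used as the FPKM table that the authors deposited. HISAT, Bowtie2, HTSeq and edgeR on hg19 are named in the submitters' processing notes, with neither versions nor roles given. For genes with few reads, values were whole multiples of 1 read over the whole gene span in 84.9% of cases and over exon length in 1.6%, so the deposited FPKM were taken to divide by the span. The recovered whole reads made up 98.83% to 99% of library totals. The span fixed them for 16866 of the 21707 genes above 0 in any library. For 4403 genes the smallest whole-number solution was used, and for 437 the solution nearest the span. The reads of these genes, PDE10A, FGF1, SMAD6, LTBP2 and LHX4 among them, could be off by a whole-number factor.

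Genes with a mean of at least 1 FPKM were tested as log2(FPKM + 1) with limma 3.58.1 in R 4.3.3, on 6 libraries with 3 groups, and p-values were adjusted over all 8317 genes by the Benjamini-Hochberg method. Fold changes are ratios of group mean FPKM, and log2 changes understate those of low genes. Recovered reads with a mean of at least 50 were tested with voom and limma over 12820 genes. Both fits join the spread of each gene, with 3 degrees of freedom, to a spread pooled over genes. The pooled part had 1.81 degrees of freedom on FPKM and 52.3 on reads. The p-values on reads thus rest mostly on the pooled spread, not on that of the single gene. A gene was called at an adjusted p under 0.05. On simulated data for this comparison the FPKM test recovered 89.9% of 99 genes changed 1.5-fold and 94.8% of 96 genes changed 2-fold. It made 13 false calls among 8199 genes. The simulation gave all genes the same assumed spread, not one estimated from these libraries, so these shares need not hold for the real data.

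The members and lists were chosen with earlier results of these data known. In each main class the 6 largest called changes per direction were named, and 3 in the other classes. By a rule added after values were seen, the 4 largest called members per direction of each group, 8 per direction outside the classes and 4 per direction per main class under the filter were named as well. All these rules took only genes whose control and IAA values did not overlap, so that separation is not a result. RefSeq promoters were matched by gene. Alternatives were the pseudocount, the filter, TPM, the 4 libraries alone, a replicate block, voom and leaving out each library. A few genes that the naming rule picked are not reported here.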

Additional observations from a re-analysis of the deposited data

How the results depend on the processing

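On FPKM 1092 genes changed. Separate fits called 1093 with a pseudocount of 0.1, 1095 with 5, 881 with no filter and 1044 with TPM. The count fell to 501 with a filter at 5 FPKM, where fewer genes were tested, and to 536 with the 4 libraries alone, and rose to 3506 with voom on reads; the cause was not tested. It ranged from 50 to 534 with 1 library left out. With a replicate block 486 were called, 239 rises and 247 falls. The numbers do not pair the libraries, since the deviations of same-numbered libraries had correlations of 0.043, -0.027 and 0.006. Under the filter 1203 genes changed on reads, 1146 with the replicate block, and 767 to 1227 with 1 library left out. Of 297 genes named on FPKM, 17 lost their call with TPM, 103 with the 4 libraries alone, 119 with the block and 3 with voom (MRPL55, COX7A2 and COA5), and between 266 and 279 without 1 control or IAA library. None changed direction under the alternatives run, but only TPM and the fits on reads could have shown a change. In the other fits the direction was fixed, because the naming rule took only genes whose control and IAA values did not overlap. With 2 libraries a group, a missed threshold does not show that a gene did not change.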
